A study of Mus musculus with 4 samples.

Results

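The 9 enzymes described here make serine and glycine and pass their carbon to folate: Phgdh, Psat1 and Psph of serine synthesis, Shmt1 and Shmt2, Mthfd1, Mthfd1l and Mthfd2, and Gldc. They were taken by gene name, 9 of 22739 named genes. The names were picked with their values in these libraries already known, so their differences between the groups are given as a description, without p-values. Poly(A) RNA was sequenced from CCE, an embryonic stem (ES) line of mouse strain 129SV, kept without feeder cells on gelatin in serum and leukemia inhibitory factor. In the shTex10 group a short hairpin depleted Tex10, and in the shLuci group, the control, a hairpin was aimed at luciferase, with 2 libraries in each. The labels call the libraries biological replicates and say nothing of separate cultures; p-values therefore cover the spread between these libraries, which may be technical. The labels give a single hairpin name for each group, and loss of Tex10 cannot be told apart from other effects of that hairpin. Levels are given in FPKM, which divides fragments by transcript length and library total and so lets genes be compared.

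Serine is made from the glycolytic intermediate 3-phosphoglycerate in the cytosol, where PHGDH, PSAT1 and PSPH act in sequence. The SHMT enzymes split serine into glycine and a carbon unit carried by tetrahydrofolate, SHMT1 in the cytosol and SHMT2 in mitochondria. The glycine cleavage system, whose decarboxylase is GLDC, releases a further unit from glycine in mitochondria. MTHFD2 and MTHFD1L turn the mitochondrial units into formate, which leaves for the cytosol, and MTHFD1 makes the same interconversions there. The units serve purine, thymidylate and methionine synthesis, and mouse ES cells are known to draw on threonine for glycine through the dehydrogenase TDH. Phgdh, Psat1, Psph, Shmt1 and Mthfd1 are called the cytosolic arm below, and Shmt2, Mthfd1l, Mthfd2 and Gldc the mitochondrial arm.

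The targeted transcript was read first. Tex10 measured 11.6 and 13.4 FPKM in shTex10, against 77.3 and 82.1 FPKM in shLuci, so that 15.7% of its mean level remained. The 8 ES cell markers examined, from Pou5f1 to Tdgf1, were present in every library, with a lowest value of 73.9 FPKM (Esrrb, shTex10 replicate 2). Of 10 fibroblast markers, 5 reached an FPKM of 1 in each library. Lum was listed at 0 in shLuci replicate 2, and the markers summed to 47.1 and 35.4 FPKM in shTex10, against 40.8 and 32.4 FPKM in shLuci. Each library had 11533 to 12003 named genes at an FPKM of 1 or more. Read totals are not part of these tables, so the depth behind each value is unknown.

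The 11883 genes whose mean FPKM was 1 or more were fitted with limma on log2(FPKM + 1), and a gene was called at a Benjamini-Hochberg adjusted p under 0.05. Log2 changes below are shTex10 minus shLuci on that scale, which understates the change of low genes, each with its standard error (SE) from the fit. Of the genes tested, 51.6% were called, 31.8% lower and 19.8% higher in shTex10. Over all genes the median log2 change was -0.14, and it was 0.06 when the named genes of each library were brought to equal sums. Under that rescaling the calls split into 3234 higher and 1906 lower, in place of 2350 higher and 3779 lower. In bulk RNA, fewer cells that express a gene and less of its RNA per cell cannot be told apart.

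Transcripts of 8 of the 9 enzymes were lower in shTex10, and that of Mthfd1 was not. All 9 passed the filter on low values in both groups, 8 were called lower against 31.8% of all genes, and 0 were called higher, also at an unadjusted p under 0.05. A call together with a log2 change of at most -1 was reached by 6 of them and by 3.05% of all genes. Both shTex10 libraries lay below both shLuci libraries for the same 8, as for 48.1% of all genes, and above them for Mthfd1, as for 28.3%. The names were chosen on this contrast, so nothing is read from these counts. With the FPKM of all rows, unnamed ones included, brought to equal sums per library, a scaling in which 7.51% of genes were called, Phgdh, Psat1 and Mthfd1l kept their call and the other 5 lost it. The log2 changes of these 8 stayed between -1.66 and -0.94 in that scaling. The 9 transcripts together summed to 321 and 314 FPKM in shTex10, against 645 and 622 FPKM in shLuci. Their share of all named FPKM was 0.0610% and 0.0584% in shTex10, against 0.105% and 0.0984% in shLuci. Without Mthfd1, the sum in shTex10 stood at 40.5% of that in shLuci.

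Most of the ES cell markers examined were lower in shTex10 as well. Their list, like the others, was chosen with earlier results of these data known. Of the 8 examined, 6 fell (75%, against 31.8% of all genes), 0 rose (0 also at an unadjusted p under 0.05 from limma) and 2, Sox2 and Dppa5a, were not called, with a median log2 change of -0.65, against -0.14 for all genes. Pou5f1, of the core pluripotency factor OCT4, fell to 599.8 and 549 FPKM in shTex10, against 938 and 848 FPKM in shLuci (limma with Benjamini-Hochberg adjusted p = 0.00454). Nanog fell to 63.3%, Zfp42 to 60.6%, Esrrb to 62.7%, Utf1 to 67.1% and Tdgf1 to 55.4% of the shLuci mean. In each of the 6 called lower, both shTex10 libraries lay below both shLuci libraries, as for 48.1% of all genes. These 6 were picked by their call, so nothing further is read from this. Fewer were called lower under 3 scalings: 5 with the same sum over named genes, 3 under quantile normalization, and 0 (0 also at an unadjusted p under 0.05 from limma) with all rows brought to equal sums. The part of this difference in the values of the 9 enzymes was not tested.

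**Figure D1:**
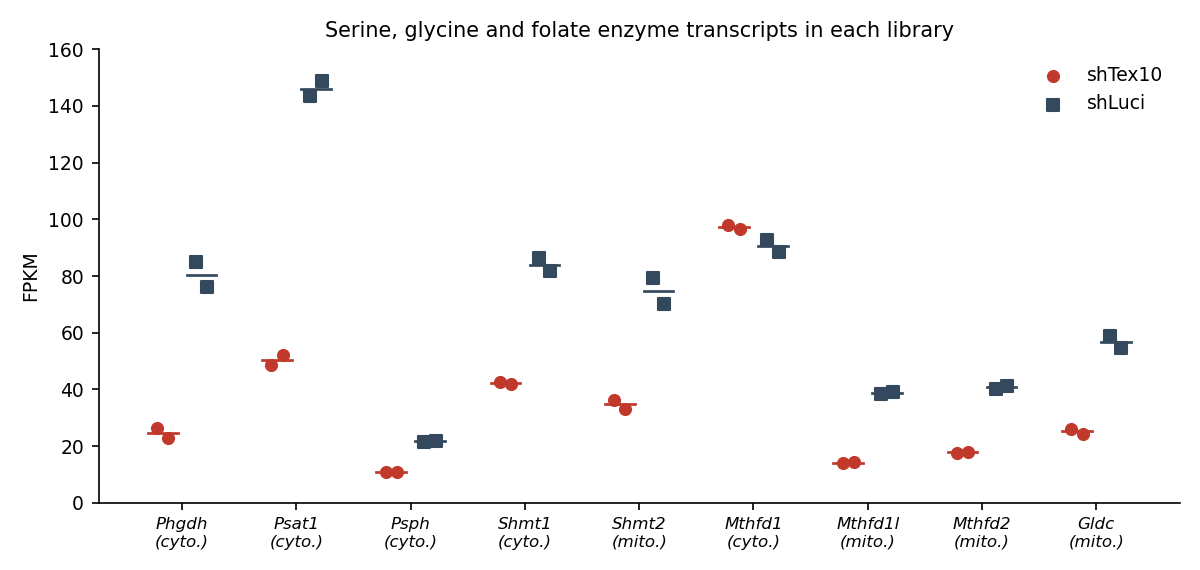
FPKM of the 9 enzyme transcripts (vertical axis) in each of the 2 shTex10 libraries (circles) and 2 shLuci libraries (squares), with the group mean as a line; cyto. and mito. give the arm. The shTex10 points lie under the shLuci points for every enzyme except Mthfd1, at 98.0 and 96.5 FPKM against 92.6 and 88.5 FPKM.

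Promoter windows of 300 bases are shown for Phgdh, Psat1 and Mthfd2, whose transcripts were lower, and for Mthfd1, whose transcript was not, so that windows of transcripts that moved together can be set beside 1 that did not. They run from 250 bases before to 50 after the annotated gene start and come from RefSeq on build GRCm38.p6, 5′ to 3′ on the gene's strand. Capitals mark matches to CCAAT on either strand, the box bound by the factor NF-Y.
Phgdh promoter, chr3:98339920-98340219, minus strand: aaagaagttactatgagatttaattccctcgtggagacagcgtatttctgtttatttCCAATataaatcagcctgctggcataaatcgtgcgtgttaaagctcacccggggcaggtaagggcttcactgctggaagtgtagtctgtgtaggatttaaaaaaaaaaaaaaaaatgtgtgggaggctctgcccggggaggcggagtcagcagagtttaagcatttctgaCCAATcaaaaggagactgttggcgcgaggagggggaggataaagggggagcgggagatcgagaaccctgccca
Psat1 promoter, chr19:15925010-15925309, minus strand: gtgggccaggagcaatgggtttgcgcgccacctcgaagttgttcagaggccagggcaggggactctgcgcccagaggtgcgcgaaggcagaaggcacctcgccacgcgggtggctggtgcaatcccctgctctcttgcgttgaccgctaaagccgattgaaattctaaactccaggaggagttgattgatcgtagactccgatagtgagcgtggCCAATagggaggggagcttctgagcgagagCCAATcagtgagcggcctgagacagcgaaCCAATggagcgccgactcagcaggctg
Mthfd2 promoter, chr6:83317555-83317854, minus strand: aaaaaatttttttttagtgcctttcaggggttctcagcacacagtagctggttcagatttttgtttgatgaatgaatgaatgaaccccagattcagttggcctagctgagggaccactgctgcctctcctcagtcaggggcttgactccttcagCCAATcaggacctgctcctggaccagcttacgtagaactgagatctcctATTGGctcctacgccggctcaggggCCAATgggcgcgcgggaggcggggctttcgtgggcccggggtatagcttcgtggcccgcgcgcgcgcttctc
Mthfd1 promoter, chr12:76254982-76255281, plus strand: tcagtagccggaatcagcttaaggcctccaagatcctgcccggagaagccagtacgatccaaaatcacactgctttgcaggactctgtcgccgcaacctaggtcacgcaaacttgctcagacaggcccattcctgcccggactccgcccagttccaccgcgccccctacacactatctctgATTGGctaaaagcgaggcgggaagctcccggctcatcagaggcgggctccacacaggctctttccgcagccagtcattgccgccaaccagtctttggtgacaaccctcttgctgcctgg
All 9 enzymes had a window, and Psat1 had another one, with no CCAAT, for a second start. CCAAT was found in a window of 7 of the 9 genes, Shmt2 and Mthfd1l being without it. Counted by window rather than by gene, it was in 37.4% of all 32851 windows. Psat1 and Mthfd2 held 3 matches each, Phgdh and Psph 2 each, and Shmt1, Mthfd1 and Gldc 1 each, so a match was present both where the transcript was lower and where it was not. The core of the composite element bound by ATF4 (TGATGNAA, either strand) was in none of the members' windows and in 3.97% of all windows. The E-box CACGTG, a palindrome, was likewise in none of them and in 7.15% of all windows. CCAAT was chosen after the windows had been read, and a match or its absence describes these letters only.

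The serine synthesis enzymes held the 2 largest differences of the 9. Phgdh (mm9 chromosome 3, 98117093 to 98143892), the gene of the first and committing dehydrogenase, measured 26.5 and 22.8 FPKM in shTex10, against 84.9 and 75.9 FPKM in shLuci. The groups lay far apart, and the shTex10 mean of 24.7 ± 2.60 FPKM (SD, n = 2) was 30.7% of the shLuci mean of 80.4 ± 6.36 FPKM (SD, n = 2). Its log2 change was -1.67 (SE 0.11), or -1.53 relative to the median of all genes, and 55 of the 11883 genes had a lower one. Psat1 (chromosome 19, 15979156 to 15999549), the gene of the aminotransferase that takes nitrogen from glutamate and yields alpha-ketoglutarate, measured 48.6 and 52.0 FPKM in shTex10, against 143 and 149 FPKM in shLuci. The libraries of a group were close together, and the log2 change was -1.52 (SE 0.09). Psph (chromosome 5, 130271433 to 130293129), the gene of the phosphatase that releases serine, measured 10.7 and 10.8 FPKM in shTex10, against 21.6 and 21.8 FPKM in shLuci. It was the lowest of the 9 transcripts in both groups, and its log2 change of -0.95 (SE 0.09) was smaller in size than those of Phgdh and Psat1. Summed, the transcripts of these 3 steps stood at 85.8 ± 0.124 FPKM in shTex10 and 248 ± 2.43 FPKM in shLuci (SD, n = 2 each), or 34.5%.

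Both SHMT transcripts were lower to a similar degree. Shmt1 (chromosome 11, 60552312 to 60624767), of the cytosolic enzyme, measured 42.5 and 42.0 FPKM in shTex10, against 86.3 and 81.8 FPKM in shLuci. Its groups did not overlap, with a log2 change of -0.97 (SE 0.09). Shmt2 (chromosome 10, 126951994 to 126959500), of the mitochondrial enzyme, measured 36.4 and 33.3 FPKM in shTex10, against 79.1 and 70.0 FPKM in shLuci. Its groups did not overlap either, with a log2 change of -1.08 (SE 0.10). Shmt2 made up 46.1% and 44.2% of the summed SHMT FPKM in shTex10, against 47.8% and 46.1% in shLuci. The higher shTex10 share and the lower shLuci share round to the same value, and the difference of the means, -1.83 percentage points, was of the size of the spread between replicates (SD 1.35 in shTex10 and 1.21 in shLuci). Levels of the 2 SHMT transcripts were close to even in both groups.

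Among the MTHFD transcripts, Mthfd1l and Mthfd2 were lower in shTex10 and Mthfd1 was not. Mthfd1 (chromosome 12, 77356218 to 77420807), of the cytosolic enzyme with dehydrogenase, cyclohydrolase and synthetase activity in 1 protein, measured 98.0 and 96.5 FPKM in shTex10, against 92.6 and 88.5 FPKM in shLuci. Both shTex10 values lay above both shLuci values, and the log2 change of 0.10 (SE 0.08) was not called. Its sign stayed positive in all 16 alternatives, from 0.07 to 0.37. It was called higher in 3 of them, with log2 changes of 0.37 under quantile normalization, 0.33 with the same sum over named genes and 0.10 with the replicate number as a block.

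Mthfd1l (chromosome 10, 6179459 to 6373466), of the mitochondrial synthetase that releases formate, measured 13.9 and 14.4 FPKM in shTex10, against 38.2 and 39.2 FPKM in shLuci. Its log2 change was -1.39 (SE 0.09), the largest fall in the mitochondrial arm. Mthfd2 (chromosome 6, 83255684 to 83293915), of the mitochondrial dehydrogenase and cyclohydrolase, measured 17.7 and 18.0 FPKM in shTex10, against 40.1 and 41.3 FPKM in shLuci. The libraries of each group nearly coincided, and the log2 change was -1.14 (SE 0.08). For each FPKM of Mthfd1 there were 0.142 and 0.149 of Mthfd1l in shTex10, against 0.413 and 0.443 in shLuci. For Mthfd2 these ratios were 0.181 and 0.187 in shTex10, against 0.433 and 0.466 in shLuci. Mthfd2l, the gene of the other mitochondrial dehydrogenase and cyclohydrolase, was named after its values were seen. It stayed below the filter, at 0.922 ± 0.106 FPKM in shTex10 and 0.904 ± 0.00966 FPKM in shLuci (SD, n = 2 each).

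Gldc (chromosome 19, 30169545 to 30249931) measured 26.1 and 24.2 FPKM in shTex10, against 58.9 and 54.5 FPKM in shLuci. The groups did not overlap, with a log2 change of -1.14 (SE 0.09), close to that of Shmt2 and Mthfd2. The other transcripts of the glycine cleavage system were not lower to that extent. Gcsh, of the lipoyl carrier protein, fell to 87.3 and 100.0 FPKM in shTex10, against 138 and 146 FPKM in shLuci (log2 change -0.60, SE 0.10, limma with Benjamini-Hochberg adjusted p = 0.00560). Amt, of the aminomethyltransferase, measured 37.5 and 34.2 FPKM in shTex10, against 38.9 and 36.7 FPKM in shLuci, with a log2 change of -0.07 that turned to 0.12 under quantile normalization (adjusted p = 0.536 from limma as deposited). Dld, of a lipoamide dehydrogenase that other enzyme complexes also use, measured 34.6 and 50.3 FPKM in shTex10, against 44.9 and 57.8 FPKM in shLuci, overlapping ranges (limma, Benjamini-Hochberg adjusted p = 0.291). Dld was called lower with the replicate block (limma, adjusted p = 0.00401). Its log2 change of -0.28 ran from -0.54 to -0.02 without single libraries.

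**Figure D2:**
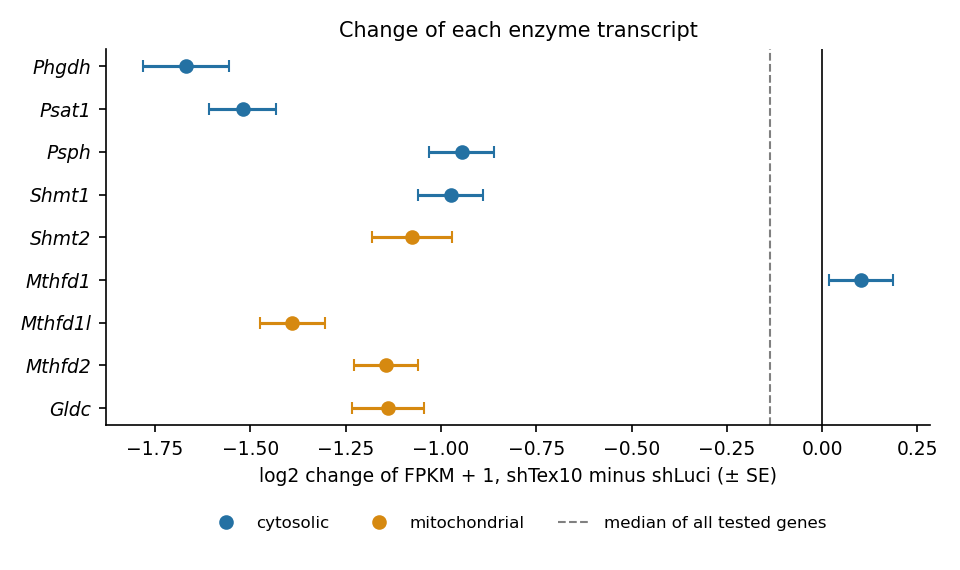
Log2 change of FPKM + 1, shTex10 minus shLuci (horizontal axis), of each enzyme transcript with its standard error from the limma fit, coloured by compartment; the dashed line is the median of all genes tested, -0.14. The changes run from -1.67 (Phgdh) to -0.95 (Psph) for 8 transcripts, with Mthfd1 apart at 0.10.

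Set side by side, the arms differed mainly through Mthfd1. The cytosolic arm summed to 226 and 224 FPKM in shTex10, against 429 and 417 FPKM in shLuci, or 53.3% of the shLuci mean. The mitochondrial arm summed to 94.2 and 89.9 FPKM in shTex10, against 216 and 205 FPKM in shLuci, or 43.7%. Without Mthfd1, the cytosolic arm stood at 38.5% of its shLuci mean, below the mitochondrial arm. The mitochondrial arm held 29.4% and 28.6% of the FPKM of the 9 transcripts in shTex10, against 33.5% and 33.0% in shLuci. Within the MTHFD enzymes alone, Mthfd2 and Mthfd1l held 24.4% and 25.2% of the FPKM in shTex10, against 45.8% and 47.6% in shLuci, a difference of -21.9 percentage points. These shares are taken within a library and do not depend on how libraries are scaled to each other. With Gldc and the serine synthesis enzymes left out, the mitochondrial arm held 32.4% in shTex10 and 46.9% in shLuci.

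**Figure D3:**
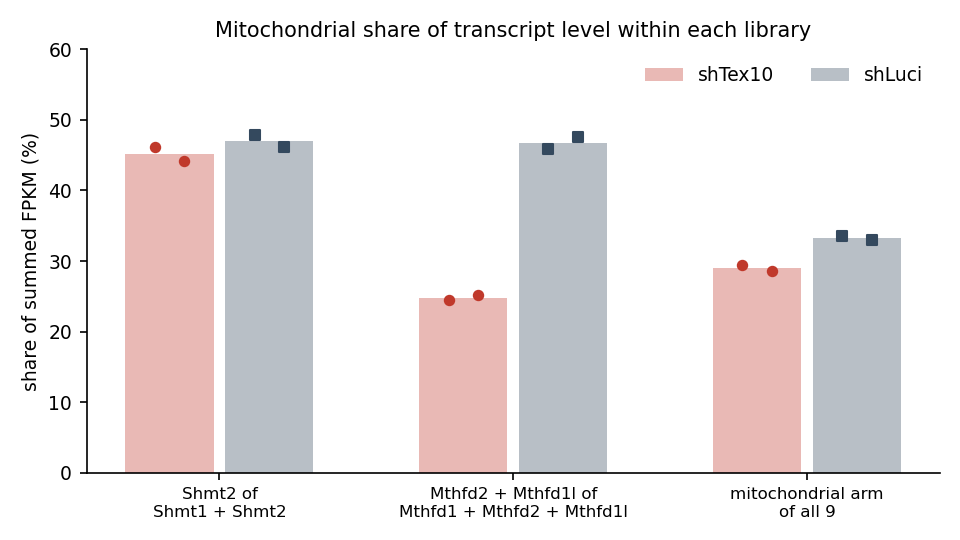
Share of summed FPKM in percent (vertical axis) held by the mitochondrial transcripts among the SHMT enzymes, the MTHFD enzymes and all 9 members, in each shTex10 library (circles) and shLuci library (squares), with bars at the group mean. The MTHFD share is 24.8% in shTex10 and 46.7% in shLuci on average, while the SHMT shares of the groups nearly touch.

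The order of levels differed between the groups in its upper part. In shTex10, Mthfd1 was highest at a mean of 97.2 FPKM, followed by Psat1 (50.3), Shmt1 (42.3), Shmt2 (34.8), Gldc (25.2), Phgdh (24.7), Mthfd2 (17.9), Mthfd1l (14.2) and Psph (10.8). Gldc and Phgdh overlapped there, and the other neighbours did not. In shLuci, Psat1 was highest at a mean of 146 FPKM, followed by Mthfd1 (90.6), Shmt1 (84.1), Phgdh (80.4), Shmt2 (74.6), Gldc (56.7), Mthfd2 (40.7), Mthfd1l (38.7) and Psph (21.7). Shmt1 overlapped with Phgdh there, and Phgdh with Shmt2. Mthfd1 made up 30.6% ± 0.103 of the summed FPKM of the 9 in shTex10 and 14.3% ± 0.0787 in shLuci (SD, n = 2 each), and the 3 serine synthesis transcripts 27.0% ± 0.352 and 39.2% ± 0.642 in the same groups.

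Each member has 1 row in the tables, and the loci of 6 members overlap no other row. Smcr8 and Top3a share the locus of Shmt1, with 12.3 and 11.7 FPKM (Smcr8) and 9.28 and 9.54 FPKM (Top3a) in shTex10, against 14.0 and 13.4 FPKM (Smcr8) and 12.2 and 12.3 FPKM (Top3a) in shLuci. Ndufa4l2 shares that of Shmt2, with 3.03 and 3.76 FPKM in shTex10, against 5.98 and 5.98 FPKM in shLuci. Mob1a shares that of Mthfd2, with 39.4 and 48.5 FPKM in shTex10, against 46.9 and 55.9 FPKM in shLuci. Whether strand was used in assigning reads is not given in the sources used here, and the part of these neighbours in the values of Shmt1, Shmt2 and Mthfd2 was not tested. Smcr8, Top3a and Ndufa4l2 stayed below their member in each library, and Mob1a above it.

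Genes around the 9 enzymes were read from 5 lists of 50 names: partners of glycine cleavage, supply and use of glycine and serine, the folate cycle, carriers, and the methionine cycle. Of these, 36 were tested, 11 stayed below the filter and 3 had no row of their own. In shTex10, 14 of the 36 fell (38.9%, against 31.8% of all genes), 5 rose (13.9%, against 19.8%) and 17 were not called. Their median log2 change was -0.17, against -0.14 for all genes and -1.14 for the 9 members. The counts lie near those of all genes, so no shift of these genes as a group is read from them. With all rows brought to equal sums per library, 24 of the 27 called genes that the naming rule takes from these lists, the ATF4 pathway and the fibroblast markers, Gcsh above among them (limma, adjusted p = 0.583), lost their call, and Aldh1l1, Atf3 and Ddit4 kept it.

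The folate cycle outside the 9 members held changes in both directions. Of 10 tested genes, 4 were lower (40%, against 31.8% of all genes), 1 higher (10%, against 19.8%) and 5 not called. Aldh1l1, of the cytosolic enzyme that oxidizes the formyl unit of 10-formyltetrahydrofolate to carbon dioxide, rose to 18.0 and 13.9 FPKM in shTex10, against 2.28 and 1.52 FPKM in shLuci. This was an 8.40-fold difference of the means, far outside the spread of either group (log2 change 2.55, SE 0.18, limma with Benjamini-Hochberg adjusted p = 0.000382). Aldh1l1 was called in every alternative that kept all libraries. Without single libraries its log2 change ran from 2.36 to 2.74. Of the 2 purine synthesis enzymes that take formyl units, Atic fell to 58.4 and 57.2 FPKM in shTex10, against 131 and 125 FPKM in shLuci (log2 change -1.13, SE 0.08, limma, adjusted p = 0.000440). Gart, the other, fell to 114 and 110.4 FPKM in shTex10, against 160 and 162 FPKM in shLuci (limma, adjusted p = 0.00452), a call lost under quantile normalization (0.0531). Fpgs, of the synthase that adds glutamates to folate and so keeps it in the cell, fell to 28.4 and 24.6 FPKM in shTex10, against 42.6 and 34.6 FPKM in shLuci (limma, adjusted p = 0.0212). That call was lost without shLuci replicate 1 (0.0635), under quantile normalization (0.0806) and with the same sum over named genes (0.151). Tyms, of thymidylate synthase, was named after its values were seen: it measured 30.3 and 28.5 FPKM in shTex10, against 30.3 and 30.1 FPKM in shLuci (limma, adjusted p = 0.750).

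Carriers of folate, serine and glycine split likewise. Of 10 tested, 3 were lower (30%, against 31.8% of all genes), 2 higher (20%, against 19.8%) and 5 not called. Slc19a1, of the reduced folate carrier, fell to 4.05 and 3.01 FPKM in shTex10, against 9.71 and 7.95 FPKM in shLuci (limma, Benjamini-Hochberg adjusted p = 0.00268). Sfxn1, of the mitochondrial serine carrier, fell to 12.1 and 14.5 FPKM in shTex10, against 28.8 and 28.8 FPKM in shLuci (limma, adjusted p = 0.00117). Slc1a5, of a glutamine and neutral amino acid transporter, fell to 5.44 and 4.95 FPKM in shTex10, against 14.9 and 11.0 FPKM in shLuci (limma, adjusted p = 0.00235). Each of these 3 was lower in both shTex10 libraries than in both shLuci libraries, as were 48.1% of all genes. Having been picked by their call, they add nothing to it by this. Slc38a2, of a sodium-coupled neutral amino acid transporter, rose to 154 and 189 FPKM in shTex10, against 107 and 121 FPKM in shLuci (limma, adjusted p = 0.0141). Sfxn3, a relative of Sfxn1, rose to 5.91 and 5.45 FPKM in shTex10, against 4.34 and 3.47 FPKM in shLuci (limma, adjusted p = 0.0240), a call lost without shLuci replicate 2 (0.110) and with no filter on low values (0.0561). Folr1 and Folr2, of folate receptors, share a row that rose to 75.3 and 71.4 FPKM in shTex10, against 40.6 and 42.5 FPKM in shLuci (limma, adjusted p = 0.00133; 0.358 with all rows at equal sums), and its value cannot be divided between them.

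Among 8 tested genes of glycine and serine supply and use, 3 fell (37.5%, against 31.8% of all genes). Of the others, 2 rose (25%, against 19.8%) and 3 were not called. Tdh, of threonine dehydrogenase, was abundant in both groups, at 174 and 168 FPKM in shTex10 and 213 and 216 FPKM in shLuci (log2 change -0.33, SE 0.08, limma with Benjamini-Hochberg adjusted p = 0.0206). The groups did not overlap, but the call was lost on leaving out any single library (adjusted p from 0.0774 to 0.135 from limma) and under median scaling (0.0501). The log2 change was -0.10 with the same sum over named genes (limma, adjusted p = 0.354) and 0.05 under quantile normalization (0.654). Pipox, of an enzyme that oxidizes sarcosine and pipecolate, fell to 19.7 and 19.3 FPKM in shTex10, against 29.8 and 29.4 FPKM in shLuci (limma, adjusted p = 0.00338). Gatm, which uses glycine for creatine synthesis, measured 1.86 and 2.04 FPKM in shTex10, against 0.763 and 0.950 FPKM in shLuci. It passed the filter only through its shTex10 values and so had to differ; it is 1 of the 2 counted as higher here, and nothing is read from its call. Cbs, which joins serine to homocysteine, rose to 8.26 and 6.88 FPKM in shTex10, against 4.95 and 4.26 FPKM in shLuci (limma, adjusted p = 0.00968). Gcat, which completes the step after TDH, shares its row with Galr3, and that row measured 9.43 and 7.12 FPKM in shTex10, against 23.7 and 19.7 FPKM in shLuci (limma, adjusted p = 0.00183).

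The methionine cycle takes up folate carbon through methionine synthase. Of its 5 tested genes, limma called 3 lower (60%, against 31.8% of all genes) and left 2 not called. It called 0 higher (0 also at an unadjusted p under 0.05), against 19.8% of all genes. Mat2a, which makes S-adenosylmethionine, fell to 190 and 196 FPKM in shTex10, against 358 and 359 FPKM in shLuci (limma, Benjamini-Hochberg adjusted p = 0.000856). Ahcy, which hydrolyses S-adenosylhomocysteine, fell to 130.4 and 116 FPKM in shTex10, against 252 and 223 FPKM in shLuci (limma, adjusted p = 0.00164). Mat2a stood at 53.8% and Ahcy at 51.9% of the shLuci mean. For both, the shTex10 libraries lay below both shLuci libraries, as for 48.1% of all genes, which adds nothing to their calls. Mtr, of methionine synthase, fell to 14.7 and 14.0 FPKM in shTex10, against 18.6 and 19.5 FPKM in shLuci (limma, adjusted p = 0.0154). That call was lost without shTex10 replicate 2 (0.0751), without shLuci replicate 2 (0.0878), under quantile normalization (0.0533) and with the same sum over named genes (0.174). Mtrr, of the reductase that reactivates methionine synthase, measured 15.8 and 16.4 FPKM in shTex10, against 16.7 and 17.6 FPKM in shLuci (limma, adjusted p = 0.444).

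ATF4 is a transcription factor known to act on genes of serine synthesis and mitochondrial folate enzymes, so a list of 17 genes of its pathway was read beside the members. All 17 were tested: 7 rose (41.2%, against 19.8% of all genes), 5 fell (29.4%, against 31.8%) and 5 were not called, with a median log2 change of 0.22, against -0.14 for all genes. Atf4 itself rose to 140.0 and 134 FPKM in shTex10, against 85.5 and 86.2 FPKM in shLuci (log2 change 0.67, SE 0.08, limma with Benjamini-Hochberg adjusted p = 0.00208). Its transcript was higher in shTex10, and those of Phgdh, Psat1 and Mthfd2 were lower. ATF4 protein was not measured, and its part in their values was not tested. Asns, of asparagine synthetase and another known ATF4 target, named after its values were seen, measured 157 and 158 FPKM in shTex10, against 157 and 162 FPKM in shLuci (limma, adjusted p = 0.869). Its log2 change of -0.02 depended on the scaling: it was 0.21 with the same sum over named genes (limma, adjusted p = 0.0801) and 0.30 under quantile normalization, where the gene was called higher (0.0288). Atf3 rose to 12.5 and 12.9 FPKM in shTex10, against 2.37 and 2.74 FPKM in shLuci, and Ddit4, an inhibitor of mTORC1, to 234 and 206 FPKM in shTex10, against 44.9 and 36.4 FPKM in shLuci (limma, Benjamini-Hochberg adjusted p = 0.000198 and 0.000214). Ddit3, of the stress factor CHOP, rose to 22.0 and 21.4 FPKM in shTex10, against 10.8 and 12.3 FPKM in shLuci (limma, adjusted p = 0.00162). The rest of the 7 that rose, named after their values were seen, were Trib3, Ppp1r15a and Slc7a11. Their log2 changes were 0.58, 0.43 and 0.33 (limma, adjusted p = 0.0142, 0.0137 and 0.0403). The 5 that fell were Eif2ak4, of the amino acid sensing kinase GCN2, Nupr1, Slc3a2, and the proline synthesis genes Aldh18a1 and Pycr1, with log2 changes from -0.97 (Nupr1) to -0.53 (Slc3a2).

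**Figure D4:**
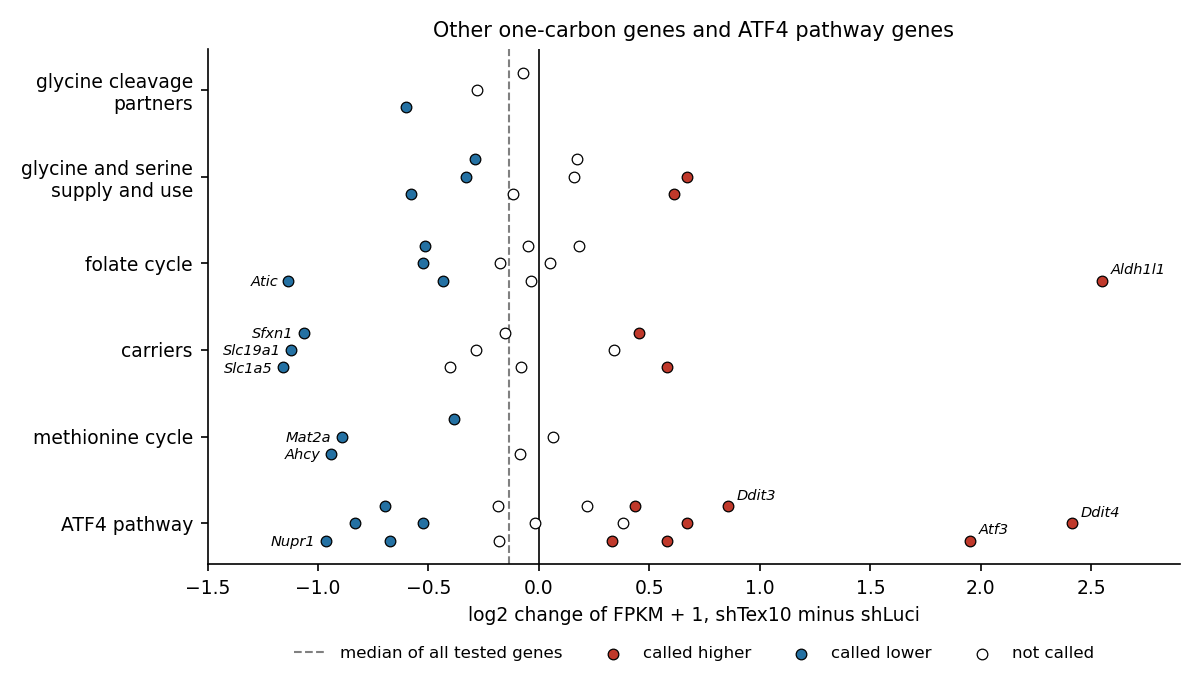
Log2 change of FPKM + 1, shTex10 minus shLuci (horizontal axis), of the tested genes of 5 one-carbon lists and the ATF4 pathway list, 1 point per gene; filled points were called by limma, red higher and blue lower, and names are given for changes over 0.85 in size. Aldh1l1 stands apart at 2.55, and within the ATF4 list Ddit4 (2.41) and Nupr1 (-0.97) mark the ends.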

How the data were processed

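RNA-seq was measured in 2 shTex10 and 2 shLuci libraries, grouped by the labels. The authors deposited FPKM per library, unpooled. Per the submitters' processing notes, Cufflinks 2.1.1, Bowtie2 2.1.0 and TopHat2 2.0.10 were used with build mm9; roles, options, annotation and strand are not given in the sources here. Rows without a gene name (7329, with 56.3% to 71.6% of summed FPKM) were left out, and rows that share a name were summed (22739 genes). Those whose mean FPKM was 1 or more entered limma 3.58.1 (R 4.3.3) as log2(FPKM + 1) (eBayes with a trend, no replicate block, Benjamini-Hochberg adjustment). The fit was also tried on simulated data whose libraries varied independently, and no call here rests on that trial. Members and lists were chosen with earlier results of these data known. Named by rule were Tex10, the members, the 4 genes (or fewer) of smallest p per list, and genes called against most calls of their list. Those of the fibroblast list, a check of the culture, stand in the closing section. Outside this rule, the ES cell markers, rows shared by listed genes, rows at members' loci and single genes such as Mthfd2l and Tyms were also named. Alternatives were pseudocounts of 0.1 and 0.5, other filters, 4 scalings, other eBayes settings, the replicate block, the highest row per name and leaving out each library. Leaving out a library leaves its group with no measured spread of its own. Calls in those fits are not read as support, and lost calls are given as limits. The smallest p of an exact two-sided permutation test with 2 libraries a group is 0.333. 1 listed gene is not reported here and entered no list count. FPKM hold no counts, so no counting intervals are given.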

Additional observations from a re-analysis of the deposited data

How the results depend on the processing

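The members were chosen on this contrast, so nothing is read from their calls here. In every alternative that kept all libraries, except the one described next, 8 members were called lower. With the sum over all rows made equal between libraries, 3 kept their call (Phgdh, Psat1 and Mthfd1l), while the log2 changes stayed between -1.66 and -0.94 for the 8. In that rescaling 655 genes were higher and 237 lower; of the other one-carbon genes 1 was higher and 0 lower (limma; 6 lower at an unadjusted p under 0.05), and of the ATF4 pathway 2 were higher and 0 lower (2 lower unadjusted); 24 of the 27 called genes named from the lists lost their call. Unnamed rows held 70.8% and 68.8% of summed FPKM in shTex10, and 71.6% and 56.3% in shLuci; the cause was not tested. Mthfd1 was the 1 member called higher under quantile normalization, with the same sum over named genes and with the replicate block. The number of genes called lower was 1906 with the same sum over named genes and 5709 with the replicate block, and that of genes called higher was 1292 at a mean FPKM of at least 5. Other one-carbon genes called higher numbered 3 at that filter, 8 with the same sum over named genes and 9 with the replicate block; those called lower numbered 9 with the same sum over named genes. Same-numbered libraries deviated together (r = 0.33 across 11883 genes), but the labels do not tie the numbers, so the block stays an alternative.

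Without single libraries, the log2 changes of the 8 lower members stayed between -1.77 and -0.94, and that of Mthfd1 between 0.07 and 0.13. The MTHFD share difference ran from -22.8 to -21.0 percentage points, the SHMT one from -2.79 to -0.87 and that of all 9 from -4.61 to -3.87; with Gldc and serine synthesis left out it was -14.5. Reversed in sign, all uncalled there, were Amt (0.12 under quantile normalization, 0.15 with the same named sum), Mtrr (0.025 and 0.13), and under quantile normalization Tdh (0.048), Postn (-0.067) and Twist1 (-0.036). Without single libraries Postn ran from -0.0057 to 0.22 and Twist1 from -0.0048 to 0.17. Unknown depth limits the low genes.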

Other observations

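Of the 10 fibroblast markers, 5 were tested and 1 was called lower (20%, against 31.8% of all genes). This was Col1a2, which fell to 7.87 and 6.87 FPKM in shTex10, against 13.7 and 11.7 FPKM in shLuci (limma, Benjamini-Hochberg adjusted p = 0.00503). Col1a1 measured 30.1 and 20.8 FPKM in shTex10, against 18.8 and 12.8 FPKM in shLuci (limma, adjusted p = 0.0607). It was called higher under median scaling (limma, adjusted p = 0.0416) and quantile normalization (0.0422). The same held with the same sum over named genes (limma, adjusted p = 0.0403) and with the replicate block (7.88e-05). Its log2 change of 0.65 ran from 0.39 to 0.91 without single libraries. The summed markers differed by 4.63 FPKM (shTex10 minus shLuci), or between -1.23 and 10.5 FPKM without single libraries. Their part in the values of the 9 enzymes was not tested.

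Dmgdh, which makes sarcosine from dimethylglycine in mitochondria, stayed below the filter, at 1.32 ± 0.322 FPKM in shTex10 and 0.243 ± 0.0411 FPKM in shLuci (SD, n = 2 each). Both of its shTex10 values lay above both shLuci values, as for 28.3% of the genes tested. Bhmt and Bhmt2, of homocysteine methylation in liver, were also below the filter, at 0.874 ± 0.0977 and 0.609 ± 0.0215 FPKM in shTex10, against 0.290 ± 0.0918 and 0.0887 ± 0.0475 FPKM in shLuci. Gnmt, below the filter as well, went the other way, at 0.445 ± 0.123 FPKM in shTex10 and 0.747 ± 0.264 FPKM in shLuci (SD, n = 2 each). These genes were named after their values were seen and were not tested.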
